A study of Mus musculus with 7 samples.

Results

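The genes described here are 10 imprinted growth regulators, Igf2, H19, Dlk1, Meg3, Peg3, Mest, Grb10, Plagl1, Ndn and Igf2r. They were taken by gene symbol from the array's platform annotation, and the list was chosen with earlier results of these data known. Of the 10 genes, 8 have probes in the annotation used here. These genes are read by 13 of the 25695 probe IDs on the array, and by 8 of the 18116 distinct rows of values, since the probe IDs of Igf2r, Mest and Plagl1 each repeat a single row. H19 and Meg3 have no probe in that annotation and were not analysed here. Of the 8 rows, 7 lay above the detection limit used here, a mean log2 value of 5.86, and Plagl1 lay below it. Total RNA came from the palatal shelves, the paired outgrowths that later join into the secondary palate, of 7 mouse embryos at E13.75, with 1 Illumina array for each embryo. The 3 controls were wild type, and the 4 mutants, Adamts9+/-:bt/bt, lacked 1 of the copies of Adamts9 and carried bt, the belted mutation of Adamts20, on both chromosomes. Both genes encode secreted metalloproteases that cleave the matrix proteoglycan versican. All 7 embryos are labelled C57BL/6. The labels name no sorted cell type, so every cell type of the dissected shelf contributed RNA.

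Imprinted genes are transcribed mainly from the chromosome inherited from a given parent, under the control of DNA methylation laid down in the egg or the sperm. Many of them set the growth of the embryo. Paternally expressed genes such as Igf2 tend to promote growth, and maternally expressed genes such as Igf2r and Grb10 tend to restrain it. Igf2 shares a domain with the noncoding RNA H19, and Dlk1 shares a domain with the noncoding RNA Meg3. In mouse, the zinc finger factor Plagl1 (Zac1) is known to regulate a network of imprinted genes that includes several of those described here. The arrays read total transcript of a gene and do not tell the parental alleles apart, so imprinting itself was not measured.

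The promoter windows of the 5 genes that passed the test below are shown first, with their CpG dinucleotides, the sites at which DNA is methylated. The windows were chosen by annotated start and not as imprint control regions. Whether any of them holds an imprint was not examined, and methylation was not measured. Each window is 300 bases long and runs from 250 bases before to 50 bases after an annotated start in the RefSeq annotation of GRCm38.p6. The strand shown is that of the gene, and capitals mark CpG dinucleotides. Where a gene has several annotated starts, the window with the most CpG dinucleotides is given. Dlk1 lies at chr12:109452573-109452872 (plus strand), Grb10 at chr11:12037371-12037670 (minus strand), Igf2r at chr17:12769657-12769956 (minus strand), Igf2 at chr7:142658755-142659054 (minus strand) and Ndn at chr7:62348027-62348326 (plus strand). The windows of the 3 genes that were lower in the mutants come before those of the 2 genes that were higher.
Dlk1: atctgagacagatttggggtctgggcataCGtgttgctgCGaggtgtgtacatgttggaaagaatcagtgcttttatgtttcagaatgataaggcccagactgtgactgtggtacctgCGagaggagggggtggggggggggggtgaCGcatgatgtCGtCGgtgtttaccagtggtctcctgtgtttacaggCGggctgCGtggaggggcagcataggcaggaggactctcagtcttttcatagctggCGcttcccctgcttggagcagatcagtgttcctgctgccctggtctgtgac
Grb10: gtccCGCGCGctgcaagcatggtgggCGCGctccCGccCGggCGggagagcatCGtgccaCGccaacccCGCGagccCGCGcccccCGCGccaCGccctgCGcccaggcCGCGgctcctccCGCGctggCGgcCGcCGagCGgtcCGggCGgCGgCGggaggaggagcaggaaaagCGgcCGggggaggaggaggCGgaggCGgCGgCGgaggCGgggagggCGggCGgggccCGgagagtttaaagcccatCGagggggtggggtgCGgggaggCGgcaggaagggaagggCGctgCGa
Igf2r: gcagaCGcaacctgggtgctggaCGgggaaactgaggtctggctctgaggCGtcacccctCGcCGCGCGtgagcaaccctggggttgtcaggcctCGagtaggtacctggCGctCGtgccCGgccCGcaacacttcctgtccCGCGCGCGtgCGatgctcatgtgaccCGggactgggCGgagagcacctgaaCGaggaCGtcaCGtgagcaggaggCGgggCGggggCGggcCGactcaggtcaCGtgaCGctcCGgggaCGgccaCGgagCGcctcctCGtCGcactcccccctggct
Igf2: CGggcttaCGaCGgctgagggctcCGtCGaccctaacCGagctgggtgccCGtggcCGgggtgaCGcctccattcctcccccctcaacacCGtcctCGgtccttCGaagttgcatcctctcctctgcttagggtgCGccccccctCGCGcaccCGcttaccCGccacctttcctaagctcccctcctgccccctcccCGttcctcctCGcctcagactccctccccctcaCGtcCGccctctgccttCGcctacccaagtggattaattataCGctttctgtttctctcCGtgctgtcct
Ndn: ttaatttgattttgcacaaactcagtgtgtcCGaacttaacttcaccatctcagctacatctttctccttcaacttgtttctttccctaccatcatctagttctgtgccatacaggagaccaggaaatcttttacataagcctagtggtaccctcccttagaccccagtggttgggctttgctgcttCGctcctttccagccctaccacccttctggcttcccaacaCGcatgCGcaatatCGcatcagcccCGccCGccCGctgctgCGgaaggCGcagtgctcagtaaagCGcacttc

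The windows differed widely in CpG content, with 45 CpG dinucleotides in Grb10, 34 in Igf2r, 24 in Igf2, 11 in Ndn and 9 in Dlk1, against a median of 7 and an upper quartile of 20 over the 32851 windows of the table. Of the genes that fell, Grb10 and Igf2r had the windows richest in CpG among the 5 and Dlk1 had the poorest. Igf2 has 4 annotated starts in the table, whose windows hold between 2 and 24 CpG dinucleotides, and Grb10 has 2, with 45 and 9. For Igf2 and Grb10 the richest window is thus set against all windows, which favours a high count. The array gave 1 value for each gene and did not separate these starts. The sequence GGGGCCCC, a binding motif of Plagl1 that reads the same on both strands, was found in 1 of the 16 windows of 9 of the 10 genes, that of Peg3 at chr7:6730370-6730669, and in 1.08% of all windows. The GC box GGGCGG, searched on both strands, was found in 9 of the 16 windows and in 35.7% of all windows. The 16 windows are not independent, since several belong to the same gene. The Mest windows starting at chr6:30737800 and chr6:30737803, both with the box, nearly coincide. No overlap between these motifs was scored.

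Of the 7 genes above the detection limit, 2 rose in the mutant shelves (Igf2 and Ndn), 3 fell (Grb10, Dlk1 and Igf2r) and 2 did not pass (Mest and Peg3). The test was limma over all 10869 rows tested, with Benjamini-Hochberg adjusted p under 0.05, which called 36.6% of all rows, 16.8% as higher and 19.8% as lower. The ranges of the groups were apart in 6 of the 7 genes, 2 with the mutants higher and 4 with the mutants lower, and in 42.6% of all rows, 19.7% higher and 22.9% lower. The median log2 difference, mutant minus wild type, was -0.36 over the 7 genes and -0.0035 over all rows. The median size of the difference was 0.38 log2 units in the 7 genes and 0.17 over all rows. The 7 genes were bright, each with a mean above at least 82.1% of the rows on the array. The comparison with all rows was not matched for brightness. Both maternally expressed genes tested, Grb10 and Igf2r, fell. Of the 5 paternally expressed genes tested, 2 rose, 1 fell and 2 did not pass. All values are log2 values of the authors' deposited table unless intensity is named, and a difference of 1 is a doubling.

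Before normalization the upper quartile of intensity was between 209.4 and 247.8 in wild type and between 172 and 200.2 in the mutants, so that genotype and array brightness cannot be told apart. Pearson correlations across rows (rows are not independent replicates) were between 0.982 and 0.993 within wild type, between 0.992 and 0.994 within the mutants and between 0.947 and 0.977 across the groups. On the leading principal component, which held 74.1% of the variance, wild-type replicate 3 at -13.5 lay between the other wild-type arrays at -25.4 and -32.2 and the mutants, between 15.6 and 21.2. Precision is limited by having 7 arrays. Of the mutated genes, Adamts9 was not analysed here, and Adamts20 lay below the detection limit in every array, at 5.67, 5.82 and 5.68 in wild type and 5.80, 5.70, 5.75 and 5.69 in the mutants, so it does not check the labels.

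Markers of other cell types differed between the same groups. The counts below stand beside 16.8% of all rows called higher and 19.8% called lower. Of 18 neuron markers, 16 were above the limit, of which 13 rose, 0 fell and 3 did not pass. Their summed linear value ran from 2217 to 4138 in wild type and from 10351 to 14763 in the mutants. Snap25 and Nefl were the neuron markers below the limit. Of 14 markers of palatal mesenchyme, the core of the shelf that the labels name, 13 were above the limit, of which 0 rose, 4 fell (Twist1, Barx1, Msx1 and Osr2) and 9 did not pass. Their summed value ran from 12644 to 14714 in wild type and from 8435 to 9824 in the mutants. Such a sum is led by the brightest genes, here Msx1, Osr2 and Barx1, which fell, and the median log2 difference of the 13 was -0.17. Osr2 and Msx1 read above 10 in both group means, Pax9 and Tbx22 lay close to the limit, and Mn1 lay below it. Of 11 endothelium markers 5 fell and 0 rose, with summed values from 3452 to 4160 in wild type and from 2936 to 3516 in the mutants. Of 11 muscle markers above the limit 1 rose and 0 fell, with summed values from 3980 to 12076 and from 11488 to 17880. Counts for the other lists were 2 higher and 1 lower of 5 for glia, 0 and 1 of 7 for red cells, 2 and 1 of 11 for epithelium, 0 and 1 of 9 for cartilage, 1 and 0 of 4 for bone, and 1 and 1 of 7 for leukocytes. The part of these markers in the differences of the imprinted genes was not tested, and in whole shelves fewer cells of a type and less RNA per cell cannot be told apart.

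**Figure D1:**
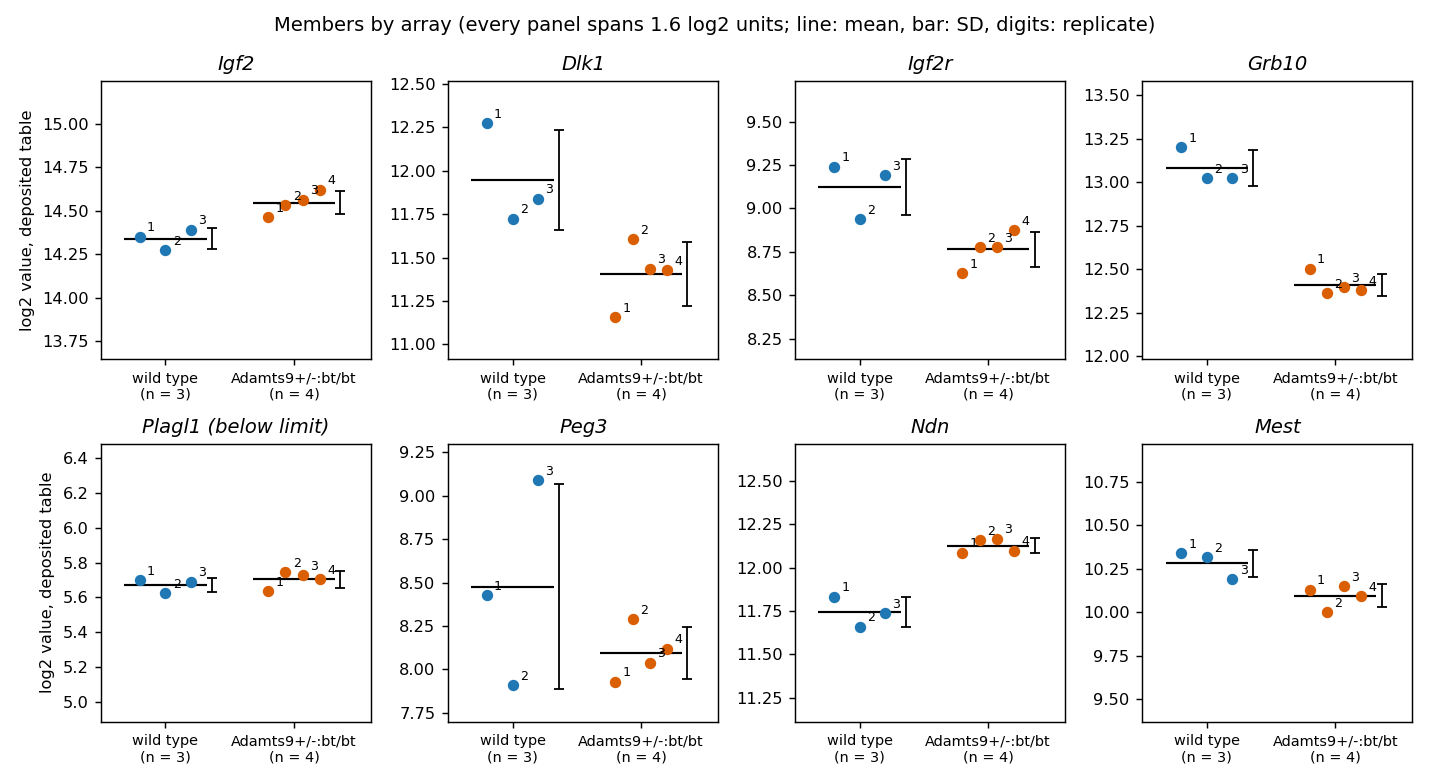
Log2 value of the deposited table (vertical axis, every panel spanning the same number of log2 units) in the 3 wild-type (blue) and 4 Adamts9+/-:bt/bt (orange) arrays for the 8 genes with a probe. Digits give the replicate, lines the group mean and bars the SD; the groups overlap in Peg3 and Plagl1 and lie apart in the other genes.

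Among the ligands, Igf2, the fetal insulin-like growth factor, was slightly higher in the mutants. Wild-type arrays gave log2 values of 14.35, 14.27 and 14.39, and mutant arrays gave 14.46, 14.53, 14.57 and 14.62. Every mutant array lay above every wild-type array. The group means were 14.34 ± 0.06 (SD, n = 3) and 14.55 ± 0.07 (SD, n = 4), a 1.15-fold rise with a log2 difference of 0.21 (SE 0.06, 95% interval 0.06 to 0.35, limma adjusted p = 0.0310). The exact two-sided permutation p was 0.0286, the smallest that the 35 ways of dividing 7 arrays into 3 and 4 can give. Igf2 was among the brightest rows of every array, ranking between 2 and 14 of 18116, near the highest value of the table (14.69). Before normalization its mean linear intensity was 22342 ± 958 and 23876 ± 471 (SD, 3 wild-type and 4 mutant arrays), and the groups overlapped (exact permutation p = 0.0857). The call was lost when any of 5 single arrays was left out, wild-type replicates 1 and 2 and mutant replicates 2, 3 and 4, with differences between 0.17 and 0.21. It was also lost when the arrays were centred on their medians (0.16, adjusted p = 0.0967).

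Dlk1 encodes a transmembrane ligand related to the Notch ligands that holds back the differentiation of several mesenchymal lineages. It read 12.27, 11.72 and 11.84 in wild type and 11.16, 11.61, 11.44 and 11.43 in the mutants. The mutant values were all lower, although wild-type replicate 2 lay only slightly above mutant replicate 2. Dlk1 fell 1.45-fold, from 11.95 ± 0.29 to 11.41 ± 0.19 (SD, n = 3 and 4), with a log2 difference of -0.54 (SE 0.14, 95% interval -0.86 to -0.22, limma adjusted p = 0.0174). Without wild-type replicate 1, the highest array, the difference was -0.38 and the call was lost (adjusted p = 0.0530).

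The receptor and the adaptor both fell. Igf2r encodes the cation-independent mannose 6-phosphate receptor, which binds IGF2 and carries it to lysosomes for breakdown. Its values were 9.24, 8.94 and 9.19 in wild type and 8.63, 8.78, 8.78 and 8.87 in the mutants. The mutants lay below wild type without overlap. Igf2r was 1.28-fold lower, at 9.12 ± 0.16 against 8.76 ± 0.10 (SD, n = 3 and 4), with a log2 difference of -0.36 (SE 0.09, 95% interval -0.56 to -0.15, limma adjusted p = 0.0139). Without wild-type replicate 1 the difference was -0.30 and the call was lost (adjusted p = 0.0610).

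Grb10 showed the strongest difference of the 7 genes. It encodes an adaptor that binds the activated insulin and IGF1 receptors and dampens their signalling, and in mouse it is expressed from the maternal copy in most tissues and from the paternal copy in neurons. It read 13.20, 13.02 and 13.02 in wild type and 12.50, 12.36, 12.40 and 12.38 in the mutants. The gap between the groups was wider than the range within either group. Grb10 fell 1.59-fold, from 13.08 ± 0.10 to 12.41 ± 0.06 (SD, n = 3 and 4), with a log2 difference of -0.67 (SE 0.07, 95% interval -0.83 to -0.51, limma adjusted p = 0.000191). Over all rows tested, 92.1% had a smaller difference in size. The intensity before normalization showed the same order, at 9770 ± 1335 in wild type and 5250 ± 606 in the mutants (SD, n = 3 and 4), with no overlap. Grb10 passed under all 15 alternative settings, with differences between -0.83 and -0.61.

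The imprinted transcription factors gave no call. Plagl1 lay below the detection limit in every array, at 5.70, 5.62 and 5.69 in wild type and 5.64, 5.74, 5.73 and 5.70 in the mutants. The groups overlapped, and in the fit without a filter the difference was 0.03 (95% interval -0.09 to 0.15, limma adjusted p = 0.784), a value near the floor of the array. Peg3, a zinc finger protein linked to p53 signalling and to maternal behaviour in mouse, read 8.43, 7.91 and 9.09 in wild type and 7.93, 8.29, 8.04 and 8.12 in the mutants. The wild-type arrays spanned the whole range of the mutants, and replicate 3 stood highest. The difference was -0.38 (SE 0.23, 95% interval -0.90 to 0.14, limma adjusted p = 0.231). It was -0.07 without wild-type replicate 3, and -0.66 without wild-type replicate 2, where it passed (adjusted p = 0.0225). The mutant mean lay 0.99 below wild-type replicate 3 alone, a single array that has no spread of its own. In the intensity before normalization the mutants were all lower, with means of 441 ± 142 and 257 ± 23.5 (SD, n = 3 and 4).

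Ndn encodes necdin, a protein of the MAGE family that restrains proliferation and is abundant in postmitotic neurons. It read 11.83, 11.66 and 11.74 in wild type and 12.09, 12.16, 12.17 and 12.10 in the mutants. All mutant arrays lay above all wild-type arrays, and the mutants lay within a narrow range. Ndn rose 1.31-fold, from 11.74 ± 0.09 to 12.13 ± 0.04 (SD, n = 3 and 4), with a log2 difference of 0.38 (SE 0.06, 95% interval 0.24 to 0.53, limma adjusted p = 0.00171). Its intensity before normalization did not separate the groups, at 4034 ± 418 and 4295 ± 279 (SD, n = 3 and 4, exact permutation p = 0.343). With arrays centred on their medians the difference was 0.15 and the call was lost (adjusted p = 0.134). In that scaling the median of all rows was -0.14, and Ndn lay 0.29 above it, as did Igf2.

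Mest encodes a hydrolase-like membrane protein of the endoplasmic reticulum that is abundant in embryonic mesoderm. Its values were 10.34, 10.32 and 10.19 in wild type and 10.13, 10.002, 10.15 and 10.09 in the mutants. The mutants were lower without overlap, by a margin smaller than the range within either group. The difference was -0.19 (SE 0.07, 95% interval -0.34 to -0.04) and did not pass (limma adjusted p = 0.0520). The value sat at the threshold, and 6 of the 15 alternative settings put it past, among them normexp background correction of the intensity (-0.18, adjusted p = 0.0477) and leaving out wild-type replicate 3 (-0.23, adjusted p = 0.0265).

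**Figure D2:**
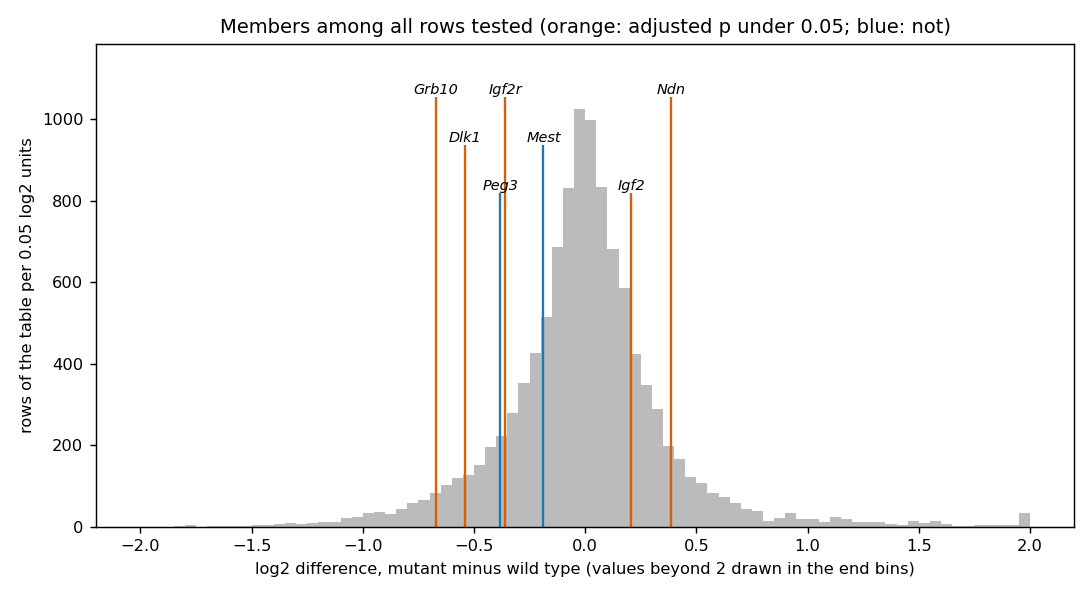
Number of rows of the table (vertical axis) by log2 difference, mutant minus wild type (horizontal axis), for all 10869 rows tested, with the 7 genes above the detection limit marked by lines (orange where the adjusted p was under 0.05). Grb10 at -0.67 and Dlk1 at -0.54 lie in the lower tail, while Igf2 at 0.21 and Mest at -0.19 lie within the bulk of all rows.

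Neighbours of these genes in their imprinted domains were compared next, from a list of 24 genes of which 15 had a probe and 9 lay above the detection limit. Of the 9, 4 rose, 1 fell and 4 did not pass, beside 16.8% of all rows called higher and 19.8% called lower. Their median log2 difference was 0.23 against -0.0035 over all rows. In the chromosome 7 domain of Ndn, which matches the human Prader-Willi region, all 4 genes above the detection limit rose, Ndn included. Snrpn, which encodes a core spliceosomal protein and shares its transcript with Snurf, read 8.90, 8.60 and 8.97 in wild type and 10.11, 10.08, 10.35 and 10.05 in the mutants. The groups lay far apart, with a 2.50-fold rise (log2 difference 1.32, SE 0.11, limma adjusted p = 8.2e-05). Mkrn3, a RING finger gene known as a brake on puberty, rose 1.44-fold (0.53, SE 0.07, adjusted p = 0.000446). Ube3a, a ubiquitin ligase gene that is expressed from the maternal copy in neurons, rose by 0.23 (SE 0.07, adjusted p = 0.0307) and lost its call under 7 of 14 alternatives. Magel2 and Peg12 of the same domain lay below the detection limit.

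Near Igf2, Th, the rate-limiting enzyme of catecholamine synthesis, rose 2.61-fold, from 6.12 ± 0.31 to 7.51 ± 0.19 (SD, n = 3 and 4, limma adjusted p = 0.000225), while Ins2 lay below the limit. In the domain of Dlk1, Dio3, which inactivates thyroid hormone, differed by 0.27 (SE 0.13, adjusted p = 0.145), and Rtl1 was below the limit. Near Grb10, Cobl, an actin nucleator, fell by 0.36 (SE 0.07, adjusted p = 0.00361), and by 0.23 against wild-type replicate 3 alone, and Ddc differed by 0.13 (adjusted p = 0.537). Usp29 (0.10, adjusted p = 0.235) and Zim1 (-0.08, adjusted p = 0.527), neighbours of Peg3, did not pass. Usp29 and Zim1 in both groups, and Cobl in the mutants (mean 6.06), lay close to the limit, where differences are hard to read. Slc22a2 and Mas1, near Igf2r, were below the limit.

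**Figure D3:**
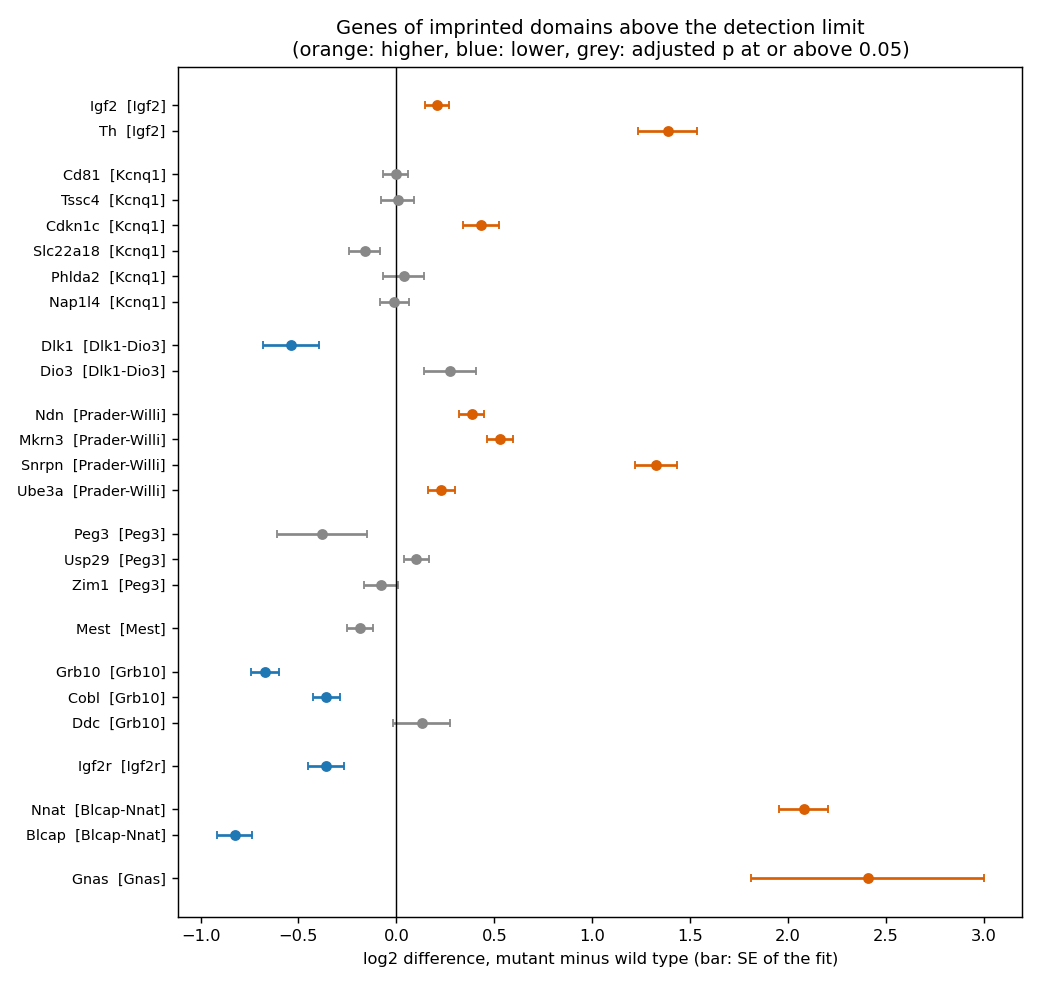
Log2 difference, mutant minus wild type (horizontal axis), with the SE of the fit as bars, for genes of imprinted domains above the detection limit, with the domain in brackets. Orange marks genes that were higher and blue genes that were lower at an adjusted p under 0.05; all 4 genes of the Prader-Willi domain lie right of 0, while Nnat and Blcap lie on opposite sides.

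Imprinted genes outside those domains were taken from a list of 44. Of these, 25 were above the detection limit, of which 5 rose, 2 fell and 18 did not pass, with a median difference of 0.02. Of all rows, 16.8% were called higher and 19.8% lower, so these counts do not set the list apart. The list takes in genes imprinted only in some tissues. Nnat, a small membrane protein of developing neurons and endocrine cells, and Blcap, within whose intron Nnat lies, went opposite ways. Nnat read 6.76, 6.73 and 7.27 in wild type and 9.02, 8.91, 9.06 and 9.02 in the mutants. It rose 4.23-fold (log2 difference 2.08, SE 0.13, limma adjusted p = 3.77e-05). Blcap read 10.15, 10.08 and 9.86 in wild type and 9.26, 9.29, 9.03 and 9.24 in the mutants. It fell 1.77-fold (-0.83, SE 0.09, adjusted p = 0.000236). Both genes showed no overlap between the groups.

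Cdkn1c encodes the CDK inhibitor p57, a maternally expressed brake on the cell cycle, and read 13.76, 13.57 and 13.96 in wild type against 14.13, 14.25, 14.27 and 14.13 in the mutants. It was higher in every mutant (0.43, SE 0.09, limma adjusted p = 0.00667), and the difference from wild-type replicate 3 alone was 0.24. Gnas, whose locus makes several imprinted transcripts that the row does not tell apart, read 6.24, 5.98 and 8.92 in wild type and between 9.36 and 9.55 in the mutants. Wild-type replicate 3 lay close to the mutants, so that the difference of 2.41 (SE 0.59, adjusted p = 0.0125) was 0.53 against that array alone, and it was 2.00 without wild-type replicate 1, where it did not pass (adjusted p = 0.0549). Inpp5f, an inositol phosphatase gene, rose by 0.59 (SE 0.06, adjusted p = 0.000245), and H13, a signal peptide peptidase gene, by 0.34 (SE 0.11, adjusted p = 0.0415), a call lost under 9 of 15 alternatives and made with overlapping groups. The list also holds the 5 further genes of the Plagl1 network, of which Cdkn1c and Gnas rose, Dcn (0.50, SE 0.19, adjusted p = 0.0742) did not pass, and Gatm and Sgce lay below the detection limit.

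The IGF axis was described from a list of 21 genes of IGF signalling, binding and mRNA control. Of these, 14 were above the limit, of which 4 rose, 3 fell and 7 did not pass, with a median difference of 0.13, beside 36.6% of all rows called in either direction. Igfbp5 and Igfbp4, which bind IGFs outside the cell, fell by 0.37 (SE 0.08, limma adjusted p = 0.00802) and by 0.35 (SE 0.08, adjusted p = 0.00992). Against wild-type replicate 3 alone the differences were -0.20 and -0.34. Igfbp2, another binding protein, rose 2.32-fold (1.21, SE 0.17, adjusted p = 0.000812). Igfbp3 rose by 2.13 (SE 0.52, adjusted p = 0.0124), but wild-type replicate 3 at 8.50 lay near the mutants, between 8.74 and 9.14, and far from the other wild-type arrays at 5.97 and 6.11. Against that array alone the Igfbp3 difference was 0.49, and without wild-type replicate 1 it was 1.68 (adjusted p = 0.0517). Igf2bp1, which binds Igf2 mRNA, fell by 0.29 (SE 0.07, adjusted p = 0.00903). Gigyf2, a partner of Grb10 protein, read 5.52, 5.82 and 6.05 in wild type and between 6.47 and 6.69 in the mutants (adjusted p = 0.00112). Its wild-type mean of 5.80 lay below the detection limit, so the row was tested only through the mutants and no fold is given. Gigyf2 is among the 4 genes counted above as higher, so that count and the median rest in part on this row. Igf1r, the receptor through which IGF2 signals, differed by 0.23 (SE 0.40, adjusted p = 0.699), with wild-type values of 6.63, 6.19 and 8.20.

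Of 13 factors that set, keep or read imprints, 9 were above the limit. Of the 9, 3 fell, 0 rose and 6 did not pass, with a median difference of -0.01. Of all rows 36.6% were called, 16.8% as higher and 19.8% as lower. All calls in this list were lower, but 9 genes are too few to tell the list from all rows. Trim28, the corepressor that protects imprints with zinc finger partners, was 1.86-fold lower (-0.90, SE 0.09, limma adjusted p = 0.000194). Ehmt2, a histone H3 lysine methyltransferase gene, was 1.76-fold lower (-0.82, SE 0.09, adjusted p = 0.000299). Smchd1, a chromatin protein of imprinted clusters and the inactive X, was 1.42-fold lower (-0.50, SE 0.07, adjusted p = 0.000792). Dnmt1, the maintenance DNA methyltransferase, differed by -0.01 (adjusted p = 0.904) and Ctcf, the factor that insulates Igf2 from its enhancers on the maternal chromosome, by 0.13 (adjusted p = 0.191).

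The genes whose log2 values ran closest to those of the 4 genes with the largest differences were taken by the smallest Euclidean distance of mean-centred values over the 7 arrays. They were Gnpat, Slc2a10 and Dact2 for Grb10, at distances of 0.132, 0.141 and 0.142. For Dlk1 they were Sorcs2, Ehbp1l1 and Htra2, at 0.224, 0.289 and 0.297. For Ndn they were Flot2, Gde1 and Atp6v1h, at 0.0849, 0.0854 and 0.0865. For Peg3 they were Dvl2, Smarcc1 and Fzd8, at 0.349, 0.374 and 0.383. No other member was among the 3 nearest genes of any of these 4.

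**Figure D4:**
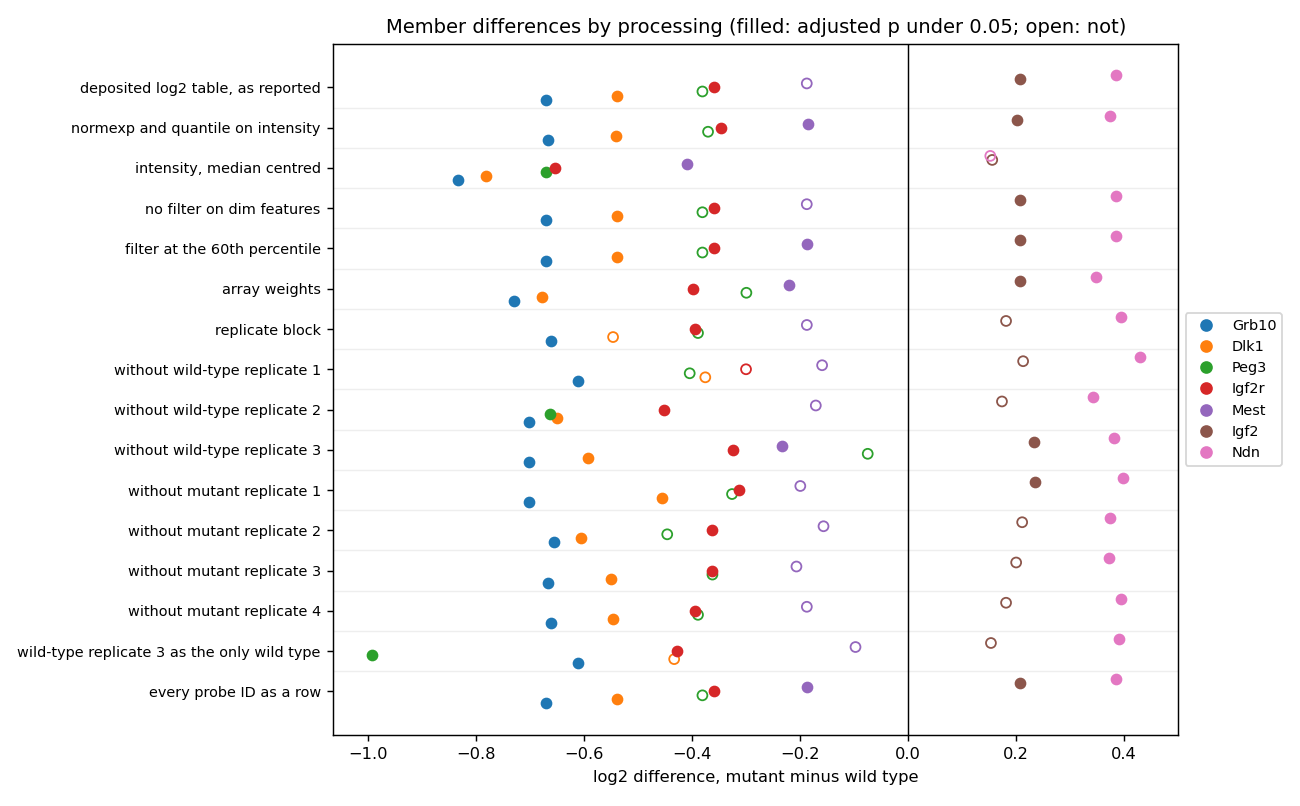
Log2 difference, mutant minus wild type (horizontal axis), of the 7 genes above the detection limit under the reported setting and 15 alternatives (vertical axis), filled where the adjusted p was under 0.05. Grb10 is filled in every line, Ndn in every line except median centring, and Peg3 lies between -0.99 and -0.07. In the line with 1 wild-type array, the spread comes from the mutants alone.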

How the data were processed

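Total RNA from 7 palatal shelf samples (3 wild type, 4 Adamts9+/-:bt/bt, described as separate embryos in the series' design text) was amplified into biotin-labelled cRNA (Illumina TotalPrep) and hybridised to Illumina arrays, per the labels' protocols. The authors deposited a linear intensity per probe ID for each array and a table of log2 values of the whole series. The deposited log2 columns share a median of 6.07, a lowest value of 5.16 and a highest of 14.69, and rank each array's rows as its intensity does (Spearman 1), so the table is normalized between arrays. The sources used here do not name the method. The deposited values lay within 0.099 of quantile-normalized log2 intensity, with a median absolute difference of 0.027. The alternative below that uses quantile normalization is therefore a closely related scaling.

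Features were the 18116 distinct rows among 25695 probe IDs. Gene symbols are those of the platform annotation: 23976 probe IDs have 1 symbol, 0 have several and 1719 have none. Rows with a mean above the 40th percentile (5.86) were tested with limma 3.58.1 in R 4.3.3 (lmFit and eBayes, 2 groups, two-sided), adjusted by Benjamini-Hochberg over 10869 rows at 0.05. Single genes also have an exact permutation test over 35 divisions of the arrays. A gene with several rows was represented by the brightest. The fit was checked on simulated data. The members and gene lists were chosen with earlier results of these data known. Every member is named, and from each list of related genes up to 6 past the threshold by smallest p; other list genes and cell type markers named were chosen after their values were seen. The comparisons planned between Igf2 and H19 and between Dlk1 and Meg3 were not made, since H19 and Meg3 were not analysed here. Alternatives were normexp (offset 50) with quantile normalization of the intensity, median centring, no filter, a filter at the 60th percentile, every probe ID as a row, array weights, a replicate block, leaving out each array, and the mutants against wild-type replicate 3 alone. The replicate numbers come from the sample titles.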

Additional observations from a re-analysis of the deposited data

How the results depend on the processing

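Over 15 alternatives 0 differences of the 7 genes changed direction. Most of the alternatives could not have changed it. The filters and the use of every probe ID keep each gene's values. Where the groups do not overlap, leaving out, weighting or blocking arrays cannot reverse a difference. For those genes only the scalings of the intensity could. Grb10 kept its call under all 15 alternatives, and the other genes changed as follows. With median centring, Igf2 (0.16) and Ndn (0.15) lost their calls and Peg3 (-0.67) and Mest (-0.41) gained them, and of all rows 826 were higher and 3931 lower, against 1829 and 2148. Mest also passed with normexp and quantile normalization (-0.18), the 60th percentile filter (-0.19), array weights (-0.22) and every probe ID as a row (-0.19). Against wild-type replicate 3 alone, where the spread comes from the 4 mutants and the lone array is assumed to vary like them, so that lost and gained calls say little about stability, Igf2 (0.15) and Dlk1 (-0.43) lost their calls and Peg3 (-0.99) gained one, and 1761 rows were called, 759 higher and 1002 lower, against 3977. With every probe ID as a row, where repeated rows count more than once, 6306 of 15417 were called, 3049 higher and 3257 lower. That is 40.9% of the rows tested, against 36.6% in the reported setting. Leaving out single arrays gave 2924 to 4339 rows called, 1279 to 2019 higher and 1636 to 2320 lower, and differences of 0.17 to 0.23 for Igf2, -0.65 to -0.38 for Dlk1, -0.45 to -0.30 for Igf2r, -0.70 to -0.61 for Grb10, -0.66 to -0.07 for Peg3 (-0.0749 without wild-type replicate 3), 0.34 to 0.43 for Ndn and -0.23 to -0.16 for Mest. The causes were not tested. Same-numbered arrays did not deviate together (correlations -0.20, -0.16 and 0.06). With 3 and 4 arrays in the groups, these correlations cannot tell whether the numbers pair the embryos. With the replicate number as a block Igf2 (0.18, adjusted p = 0.131) and Dlk1 (-0.55, adjusted p = 0.0865) lost their calls, and 2840 rows were called. Mutant replicate 4 has no wild-type array of its number, so it does not enter the difference in that fit. The differences there equal those found when that array is left out. Of 20 named genes outside the 7, 12 stayed on the same side of the threshold throughout, and the medians of 11 lists under the alternatives stayed within the spread between arrays in 149 cases and moved in 16. The glia, epithelium, bone and leukocyte lists were not among the 11. Plagl1 was too dim for a difference to be read.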
